A study of Mus musculus with 9 samples.

Results

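The Notch pathway was followed through 10 genes: the receptors Notch1, Notch2 and Notch3, the ligands Dll1, Jag1 and Jag2, and the HES and HEY genes Hes1, Hes6, Hey1 and Heyl. They were chosen by name from the pathway, with earlier results of these data known. All 10 were found by symbol among the 36842 genes that were counted in both the cultured cells and the muscle. RNA was sequenced from mouse primary myoblasts (MB), from myotubes (MT) made from them, from MB given lactate, and from gastrocnemius muscle (GAS), a hind-limb muscle. The labels give the strain as C57BL/6 for cells and muscle alike, with no transgene or deletion named in any group. MB (n = 2) were kept in growth medium with 10% horse serum, 20% fetal bovine serum and 10 ng/ml basic FGF. At 80% confluency the medium was changed to 2% horse serum, and MT (n = 2) were taken after 3 days. Lactate-treated MB (n = 2) received 10 mM sodium-L-lactate in PBS and the control cells the same amount of PBS. GAS came from female mice of 8 to 12 weeks (n = 3), named C57Bl6/J in the study's methods, and holds every cell type of a whole muscle. The labels number the libraries as biological replicates, but do not say whether numbers were shared cultures or donors across groups.

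Notch signalling runs between touching cells: a Delta or Jagged ligand on the surface of a cell binds a Notch receptor on its neighbour, the receptor is cut, and its intracellular part enters the nucleus and joins the DNA-binding protein RBPJ to switch on targets such as the HES and HEY repressors. In muscle the pathway is known for keeping satellite cells, the stem cells of muscle, undifferentiated, and Notch3, Heyl and Hey1 are known targets or parts of it in those cells. In blood vessels the same pathway acts between the endothelium and mural cells (pericytes and smooth muscle), where Notch3 and Heyl are also known to be expressed.

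Each library was a table of raw read counts per gene. Counts ran from 5198247 to 10839516 per cultured library and from 19307793 to 19941574 per GAS library, so that 3 counts, taken as the limit of detection, stand for 0.223 to 0.533 CPM (counts scaled by library size and TMM factor) in culture and for at most 0.156 CPM in GAS. MT replicate 1 stood apart from the other cultured libraries, with 28599 genes holding any count at all against 15548 to 17965, and 8918 genes were counted in it and in no other cultured library. MB replicate 1 and lactate replicate 1 had 9.20% and 13.8% of their counts on CT010467.1, a ribosomal RNA-like gene, against 0.131% to 0.575% in the other 4 cultured libraries. All 8 fiber markers tested rose in MT, among them Myog and Myh3, and of 7 MB and satellite cell markers only Pax7 fell, while Myf5, Myod1, Vcam1, Sdc4, Cdh15 and Mki67 did not pass. GAS held the adult fiber markers Ckm, Tnnt3 and Acta1 at 21635 to 25570 CPM and Actn2 at 275 to 452 CPM, while the markers of differentiation and fusion on the same list were low there, Myog at 5.14 to 8.40 CPM, Myh3 at 1.57 to 3.24 CPM, Mymk at no more than 0.304 CPM and Mymx at 0.

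The RefSeq promoter table (GRCm38.p6) held windows of 300 bases, from 250 bases before to 50 after a start site, for 7 of the 10 genes, and had no entry for Hes1, Hey1 or Heyl. The 250 bases before the start are shown for Notch3, as the receptor whose count rose in MT, and for Dll1 and Hes6, a ligand and a HES gene whose windows hold the E-box CANNTG, the motif that myogenic factors such as MyoD bind. Capitals mark the N-box CACNAG, a site of HES repressors, in Notch3 and the E-box in the other genes.
Notch3, chr17:32166891-32167140, minus strand: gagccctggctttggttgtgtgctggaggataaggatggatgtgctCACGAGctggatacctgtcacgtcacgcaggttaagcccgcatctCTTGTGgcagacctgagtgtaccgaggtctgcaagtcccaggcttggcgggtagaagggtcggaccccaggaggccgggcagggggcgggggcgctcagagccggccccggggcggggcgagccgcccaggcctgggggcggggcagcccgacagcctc
Dll1, chr17:15376933-15377182, minus strand: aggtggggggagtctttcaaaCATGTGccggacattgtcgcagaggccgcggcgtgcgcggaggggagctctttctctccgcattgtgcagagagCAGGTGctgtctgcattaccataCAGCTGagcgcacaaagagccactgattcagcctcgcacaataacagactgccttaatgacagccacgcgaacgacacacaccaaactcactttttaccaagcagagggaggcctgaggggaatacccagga
Hes6, chr1:91414039-91414288, minus strand: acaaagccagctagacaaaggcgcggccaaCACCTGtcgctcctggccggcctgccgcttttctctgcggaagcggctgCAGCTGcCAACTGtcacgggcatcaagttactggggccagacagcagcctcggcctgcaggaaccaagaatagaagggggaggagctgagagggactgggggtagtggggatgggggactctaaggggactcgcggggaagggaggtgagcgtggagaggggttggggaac
Motifs were searched on both strands, and N stands for any base. The E-box was found in 5 of the 9 windows of the 7 genes (Hes6 and Dll1 have 2 windows each) and in 72.3% of all 32851 windows of the table. Its form CAGCTG, which is part of the E-box count, was found in both windows of Hes6, at 171 and 150 bases before the start, in that of Jag1 at 82 and in the printed window of Dll1 at 132, and in 16.3% of all windows. The N-box was found in 5 of 9 windows, against 42.5% of all, and the class C site CACGNG, another HES site, in 7 of 9, against 27.5%. In Notch3 the N-box at 204 bases before the start is also a class C site. TGGGAA, the core of the RBPJ motif, was found in none of the 9 windows and in 25.6% of all, which says only that these letters are not in these windows. The windows were 55.7% to 86.0% G or C, against a median of 52.7% over all windows.

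MT were compared with MB to see which genes of the pathway change when MB leave the growth medium and fuse. Of the 12921 genes tested with edgeR's quasi-likelihood test, a gene was called when its Benjamini-Hochberg adjusted p was under 0.05 and its log2 fold change over 0.5 in size, and 11% of all genes were called higher and 6.86% lower in MT. All 10 Notch genes were tested. Heyl and Notch3 rose, Jag2 fell, and the other 7 did not pass. Without regard to the test, both MT libraries lay above both MB libraries for 6 of the 10 genes and below them for 2, where 32.9% and 29.2% of all genes did so. The median log2 fold change of the 10 genes was 0.92, against 0.07 over all genes tested, and the median of its size was 1.79 against 0.87. For the other pathway genes tested these medians were 0.19 and 0.70. Because the 10 genes were chosen with earlier results of these data known, their shares and medians are description only. The libraries are bulk RNA, in which a change in the share of cells that express a gene and a change of RNA per cell cannot be told apart.

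**Figure D1:**
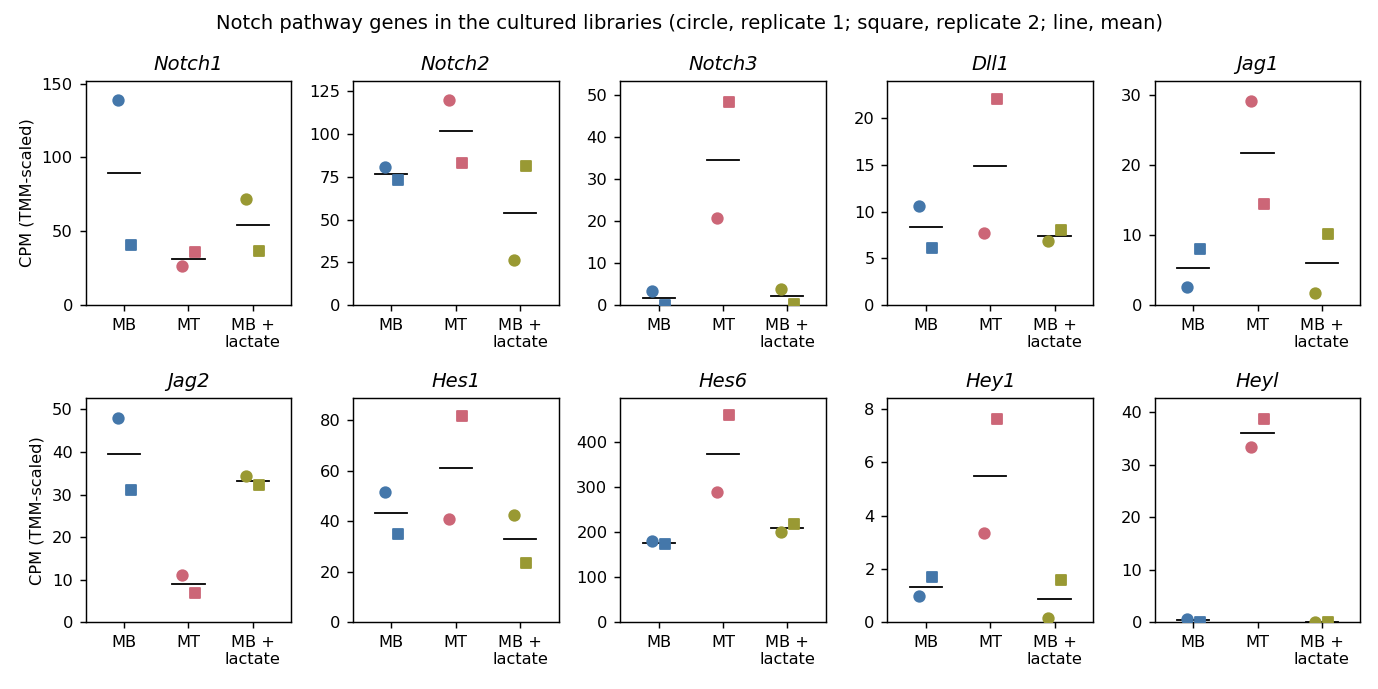
Level of each of the 10 genes in the 6 cultured libraries, in TMM-scaled CPM on a linear axis from 0. Circles are replicate 1, squares replicate 2 and lines the mean of the 2 libraries. Heyl and Notch3 are at 0 to 3.86 CPM in the 4 MB libraries and between 20.8 and 48.3 CPM in MT, and Jag2 is lower in both MT libraries than in every MB library.

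Notch3 (ENSMUSG00000038146, chr17:32120820-32166852, minus strand, GRCm38), the receptor best known from vessel smooth muscle and from satellite cells, was the receptor that rose. It stood at 3.31 and 0.121 CPM in the MB libraries (27 and 1 counts) and at 20.8 and 48.3 CPM in MT (279 and 380 counts). Both MT libraries lay above both MB libraries, and 27 of the 28 MB counts were in replicate 1. The log2 fold change was 4.24 (SE 1.01, 95% interval 2.00 to 6.48, adjusted p = 0.0166, edgeR). It was called in all 10 alternatives that tested it, with a log2 fold change from 3.21 to 7.97 and an adjusted p from 2.15e-14 to 0.0433. In 4 of these a library was left out, here and for the genes that follow, and then the group of 1 library is assumed to vary like the other group, which alone gives the spread, so that the smallest of these p-values are no added support. The fold rested on MB replicate 1, since without that library it was 7.97 and without MB replicate 2 it was 3.21.

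Notch1 (ENSMUSG00000026923, chr2:26457903-26516663, minus strand) and Notch2 (ENSMUSG00000027878, chr3:98013527-98150361, plus strand), receptors of satellite cells and of many other cells, did not pass. Notch1 was at 139 and 40.6 CPM in MB and at 26.7 and 36.1 CPM in MT. Both MT values were below both MB values, but MB replicate 2 was closer to MT than to the other MB library. Its log2 fold change was -1.57 (SE 0.60, interval -2.90 to -0.25, adjusted p = 0.0962, edgeR), and in the alternatives it ran from -2.31 without MB replicate 2, where it was called, to -0.42 without MB replicate 1 (adjusted p from 0.000132 to 0.757). The call without MB replicate 2 sets the high MB library alone against MT, with the spread from MT only. MB replicate 1 is the high library and also carried 9.20% of its counts on CT010467.1, and the part of that in the result was not tested. Notch2 was at 80.5 and 73.3 CPM in MB and at 120 and 83.0 CPM in MT, a log2 fold change of 0.41 with an interval of -0.56 to 1.38 (adjusted p = 0.554, edgeR). Exons of non-coding genes on the opposite strand cover 7.50% and 2.91% of the exonic length of Notch1 and 6.03% of that of Notch3, and a gene on the same strand covers 5.02% of Notch2. The strand setting of the counting is not stated, so that reads of these stretches cannot be assigned with certainty.

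Per kilobase of exon (RPKM), the make-up of the 3 receptors differed between the groups. Notch3 made up 2.32% and 0.154% of their summed RPKM in the MB libraries and 16.5% and 36.8% in MT. Notch1 made up 55.3% and 29.5% in MB and 12.02% and 15.7% in MT. Notch2 was the most abundant of the 3 in both MT libraries and in MB replicate 2, with 70.3% there, and second to Notch1 in MB replicate 1. The summed RPKM of the 3 receptors was 17.6 and 9.66 in MB and 15.6 and 16.2 in MT, so that the MT sums lay between the MB values. Notch4, a receptor of endothelium, was not tested and stood at 0.245 and 0.121 CPM in MB, 4.69 CPM in MT replicate 1 and 0.509 CPM in MT replicate 2.

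**Figure D2:**
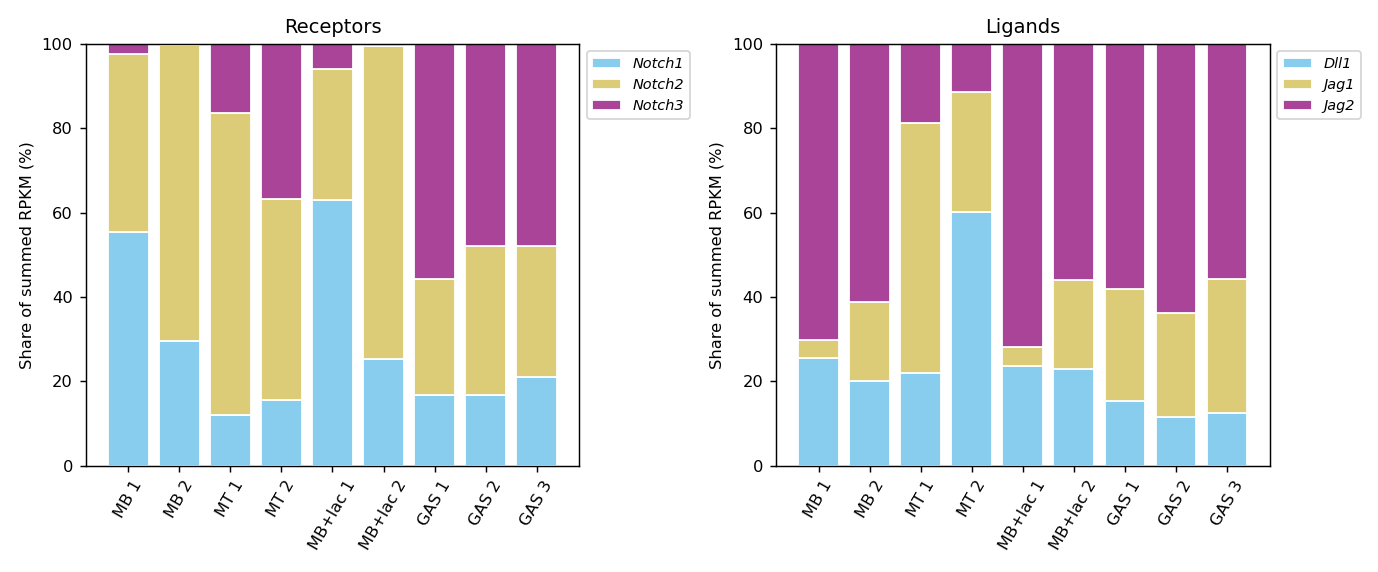
Share of the summed RPKM of the 3 receptors (left) and of the 3 ligands (right) in each of the 9 libraries, in percent. Notch3 takes 16.5% and 36.8% of the receptors in MT and 48.0% to 55.7% in GAS, against at most 5.98% in the 4 MB libraries, and Jag2 takes 56.0% to 71.9% of the ligands in the 4 MB libraries and 18.8% and 11.4% in MT.

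Among the ligands, Jag2 fell, and Jag1 was higher in MT without passing the test. Jag2 (ENSMUSG00000002799, chr12:112907819-112929776, minus strand) was at 48.0 and 31.1 CPM in MB and at 11.02 and 6.87 CPM in MT, with no overlap of the groups. Its log2 fold change was -2.14 (SE 0.56, interval -3.37 to -0.91, adjusted p = 0.0239, edgeR). The call was lost in 3 of 11 alternatives, without MT replicate 1 (adjusted p = 0.0518), without MT replicate 2 (adjusted p = 0.0789) and with crossed replicate numbers as a block (adjusted p = 0.0548), with the fall itself between -2.61 and -1.83 in all 11 alternatives, whose adjusted p ran from 6.61e-06 to 0.0789. Jag1 (ENSMUSG00000027276, chr2:137081456-137116644, minus strand) was at 2.57 and 7.95 CPM in MB and at 29.0 and 14.4 CPM in MT. The groups did not overlap, and the log2 fold change was 2.11 (SE 0.68, interval 0.60 to 3.62), with an adjusted p of 0.0564 (edgeR) that missed the threshold. It passed in 5 of 11 alternatives: with no count filter, the replicate block, crossed replicate numbers, without MT replicate 2 and without MB replicate 2. It did not pass with RLE factors (adjusted p = 0.0587), at least 10 counts in every library (0.0511) or the 6 cultured libraries together (0.115, edgeR). DESeq2 did not call it either (adjusted p = 0.0676). Its log2 fold change ran from 1.42 to 2.93 over the 11. Dll1 (ENSMUSG00000014773, chr17:15367354-15376872, minus strand), the Delta ligand known from differentiating MB, was at 10.5 and 6.15 CPM in MB and at 7.74 and 22.0 CPM in MT. The groups overlapped, MT replicate 2 alone being higher than both MB libraries, and the interval of the log2 fold change ran from -0.68 to 2.22 around 0.77 (adjusted p = 0.450, edgeR). An exon of the long non-coding RNA A930024N18Rik covers 20.5% of the exonic length of Dll1 on the opposite strand, and its reads cannot be told apart from those of Dll1 there without strand.

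By RPKM, Jag2 was the main ligand in MB, with 70.1% and 61.3% of the summed RPKM of the 3 ligands, and the least in MT, with 18.8% and 11.4%. The first place in MT was not the same in the replicates: it went to Jag1 in MT replicate 1, with 59.3%, and to Dll1 in MT replicate 2, with 60.2%. The summed RPKM of the 3 ligands was 9.84 and 7.29 in MB and 8.40 and 8.67 in MT.

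Of the HES and HEY genes, Heyl was the gene with the largest change of the 10. Heyl (ENSMUSG00000032744, chr4:123233556-123249875, plus strand), a HEY repressor and Notch target, had 6 and 0 counts in the MB libraries and 447 and 304 in MT, or 0.735 and 0 CPM against 33.3 and 38.7 CPM. The MT libraries were close to each other and far above MB. The log2 fold change of the fit was 6.54 (SE 0.96, interval 4.42 to 8.66, adjusted p = 0.00150, edgeR). Summed over the libraries, 751 counts in MT against 6 in MB gave a 96.7-fold ratio, with an exact binomial 95% interval of 44.2 to 264 that covers counting error only. Heyl was called in all 10 alternatives that tested it (adjusted p from 2.82e-16 to 0.0127), its log2 fold change running from 5.43 without MB replicate 2 to 11.45 without MB replicate 1, where MB is 1 library with 0 counts and the fitted value is no bound.

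Hey1 (ENSMUSG00000040289, chr3:8663359-8667256, minus strand), a close relative of Heyl, was at 0.980 and 1.69 CPM in MB (8 and 14 counts) and at 3.35 and 7.63 CPM in MT (45 and 60 counts). Both MT values were higher, the log2 fold change was 2.01 with an interval of 0.14 to 3.89, and the adjusted p was 0.128 (edgeR). Hes6 (ENSMUSG00000067071, chr1:91411483-91414038, minus strand), a HES family member that is known to oppose Hes1 and to be switched on in differentiating MB, was the most abundant of the 10 genes per length in every cultured library. It stood at 179 and 174 CPM in MB and at 288 and 458 CPM in MT. The MB libraries were nearly equal and both MT libraries were above them, and the log2 fold change of 1.06 (interval 0.05 to 2.08) had an adjusted p of 0.138 (edgeR) and was called in none of 11 alternatives. Hes1 (ENSMUSG00000022528, chr16:30064384-30067796, plus strand), the classic Notch target, was at 51.5 and 35.1 CPM in MB and at 40.8 and 81.5 CPM in MT. The groups overlapped, with a log2 fold change of 0.46 and an interval of -0.62 to 1.54 (adjusted p = 0.556, edgeR). Hes1 and Dll1 were both highest in MT replicate 2 and turned to -0.20 and -0.23 without that library.

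**Figure D3:**
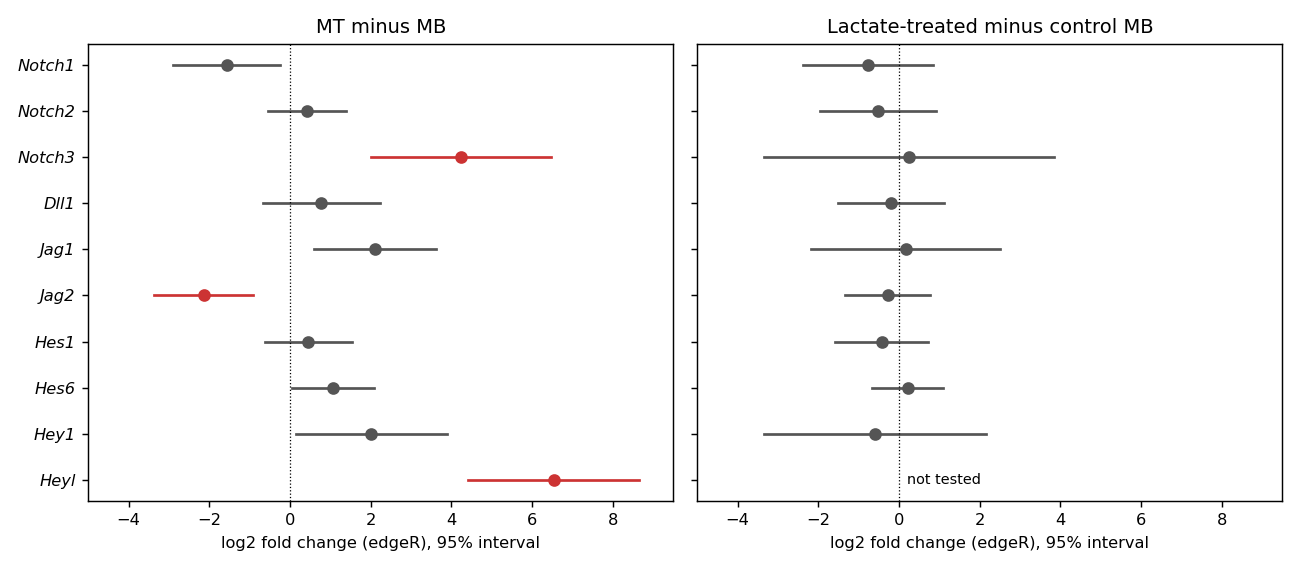
log2 fold change of each of the 10 genes with its 95% interval from edgeR, for MT minus MB (left) and for lactate-treated minus control MB (right). Red marks genes called at an adjusted p under 0.05, which are Heyl, Notch3 and Jag2 in MT and none with lactate, where Heyl was not tested.

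Markers of other cells moved with the same comparison. Of 6 mural markers, Pdgfrb and Acta2 rose in MT (log2 fold changes 4.30 and 2.60, adjusted p = 0.00126 and 0.0262, edgeR), and the summed level of the list was 287 to 467 CPM in MB and 1304 to 3643 CPM in MT, most of it Acta2, which differentiating MB also express. Kcnj8 was at 0 in MB and had 0.0745 CPM in MT replicate 1, and Rgs5, at 2.70 and 4.22 CPM in MB, was at 10.3 and 0.127 CPM in MT. Of 6 fibroblast markers, Col1a1 and Dcn rose, Col1a1 from at most 0.980 CPM in MB to 13116 and 1762 CPM in MT, with Lum and Dpt at 0 in MB and at 0.763 to 6.03 CPM in MT. Pdgfra did not pass (log2 fold change 1.46, adjusted p = 0.270, edgeR). Pi16 was not tested, at 0.858 and 0.121 CPM in MB and at 0 and 1.02 CPM in MT. The fibroblast sum was 2.29 to 3.43 CPM in MB, 13539 CPM in MT replicate 1 and 1878 CPM in MT replicate 2, most of it Col1a1 in both MT libraries. The 8 endothelial markers summed to 4.10 to 7.35 CPM in MB, 26.8 CPM in MT replicate 1 and 4.197 CPM in MT replicate 2, where Cdh5, Kdr, Tie1 and Cldn5 were at 0. The 5 macrophage markers summed to 1.08 to 1.72 CPM in MB and to 17.9 and 2.93 CPM in MT, and the 4 Schwann cell markers to at most 3.80 CPM in any cultured library. Between the MT libraries, Notch3 and Heyl were higher in replicate 2, which also had the higher mural sum (3643 against 1304 CPM) and the lower fibroblast sum. Of the mural markers, only Acta2 (3432 against 1183 CPM) and Pdgfrb (210 against 105 CPM) were higher in replicate 2. The others went the other way. Rgs5, Kcnj8, Cspg4 (2.31 against 0.763 CPM) and Myh11 (2.98 against 0.382 CPM) were higher in replicate 1. The part of these cells in the results was not tested.

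The other 79 genes of a list of the pathway were read in the same fit. Of these, 64 were tested, 7 rose, 3 fell and 54 did not pass, with a median log2 fold change of 0.19. These are 10.9% higher and 4.69% lower, near the 11% and 6.86% of all genes tested, and the values below describe single genes. Neurl1a, a ubiquitin ligase that helps take up ligands, went from 1.84 and 1.21 CPM in MB to 82.6 and 111 CPM in MT (log2 fold change 5.96, SE 0.58). Fbxw7, which marks the cut receptor for destruction, rose by 3.63 on the log2 scale, from 2.45 and 4.46 CPM to 38.4 and 46.8 CPM. Fhl1, a LIM protein of muscle with an isoform that binds RBPJ, rose by 5.40, from 6.00 and 4.70 CPM to 208 and 248 CPM, and the counts do not separate its isoforms. Bhlhe40 and Bhlhe41, repressors related to the HES proteins, rose by 4.80 and 3.15. Dner, a ligand-like protein, rose by 3.38 from 0.490 and 0.241 CPM to 5.21 and 2.54 CPM, on 4 and 2 counts in MB, and kept its call in 3 of 10 alternatives (adjusted p from 0.0318 to 0.550), not without MT replicate 1 (0.321) nor without either MB library (0.473 and 0.550). Dlk2, which resembles Delta but lacks the part that activates the receptor, fell from 24.4 and 19.0 CPM to 1.64 and 2.03 CPM (log2 fold change -3.58, SE 0.62). The histone acetyltransferase Kat2b rose by 2.37 and its relative Kat2a fell, with a log2 fold change of -1.89, while the acetyltransferases Ep300 and Crebbp did not pass (adjusted p = 0.439 and 0.461, edgeR). The deacetylase Hdac1 fell, with a log2 fold change of -1.39, and kept its call in 5 of 11 alternatives (adjusted p from 0.0208 to 0.452), not without MT replicate 1 (0.452) nor without MT replicate 2 (0.0837). Without MT replicate 1, Kat2a and Kat2b were not called either, with log2 fold changes of -1.65 and 1.71. Kat2b also lost its call with DESeq2 (adjusted p = 0.0661) and with crossed replicate numbers as a block (adjusted p = 0.0686, edgeR). Kat2b kept its call in 8 of 11 alternatives and Kat2a in 10 of 11.

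**Figure D4:**
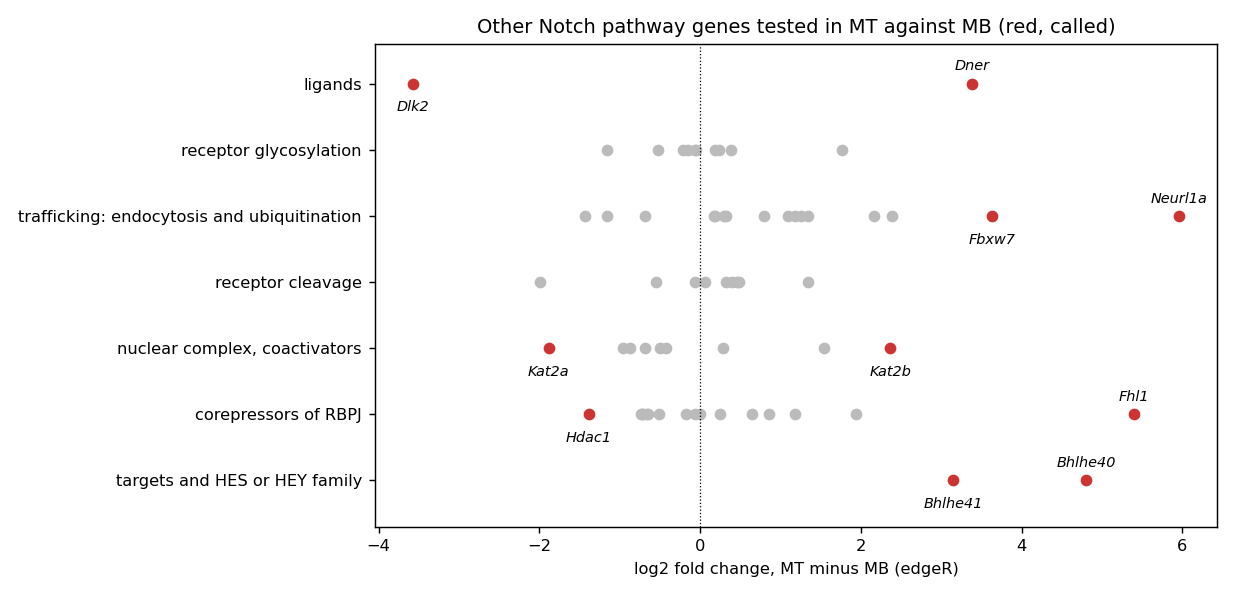
log2 fold change in MT minus MB of the 64 other pathway genes tested, each a point, by role. The 10 genes in red passed the test and are named, 7 to the right of 0 and 3 to the left, and no gene of receptor glycosylation or of receptor cleavage is among them.

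Rbpj and the Maml coactivators did not pass, unlike Kat2a and Kat2b above, which are listed with them as coactivators. Rbpj was at 78.4 and 65.1 CPM in MB and at 45.3 and 32.7 CPM in MT, a log2 fold change of -0.87 (SE 0.45, adjusted p = 0.212, edgeR). Maml1, the coactivator that joins RBPJ and the receptor, had a log2 fold change of -0.42 (adjusted p = 0.652, edgeR). Its relatives Maml2 and Maml3 had 1.54 and -0.97 (adjusted p = 0.0785 and 0.222, edgeR). Numb, an inhibitor of Notch, had a log2 fold change of 0.79 and did not pass either (adjusted p = 0.267, edgeR). Of the Fringe enzymes, which add sugars to the receptor and so shift its choice of ligand, Lfng stood at 4.90 and 6.15 CPM in MB and at 2.16 and 2.80 CPM in MT, and Rfng at 36.6 and 24.3 CPM in MB and at 41.2 and 30.9 CPM in MT, with adjusted p = 0.312 and 0.779 (edgeR). None of the 10 genes of receptor glycosylation and the 9 of receptor cleavage that were tested passed. Mfng, Dll4 and Hes5 were at 0 in all MB libraries and in MT replicate 2, and Hes5 was at 0 in MT replicate 1 too, where Mfng had 1.71 and Dll4 0.893 CPM. Hey2, at 0.123 and 0.241 CPM in MB, had 3.20 CPM in MT replicate 1 and 0.636 CPM in MT replicate 2. Nrarp, a Notch target that feeds back on the pathway, was at most at 0.382 CPM in any cultured library, and Dlk1 at most at 0.844 CPM.

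Lactate-treated MB were compared with control MB to see whether added lactate changes expression. Of 11804 genes tested, 0 were called at an adjusted p under 0.05, or 0%, and 0, or 0%, at an unadjusted p under 0.01 with a log2 fold change over 0.5 in size. At an unadjusted p under 0.05 alone there were 5 genes (edgeR), and DESeq2 called 0 adjusted and 2 at the unadjusted threshold. Among 11804 genes, a test that keeps its stated error rate would pass far more than 5 at 0.05 by chance alone. The edgeR p-values without a replicate block were thus too large here, and 0 calls do not show that lactate changed nothing. Of the 10 Notch genes 9 were tested, and the smallest unadjusted p was 0.286, for Notch1 (adjusted p = 1.00, edgeR). In the alternatives 0 were called, and the smallest unadjusted p was 0.0318, for Notch2 without lactate replicate 2. Hes6 was the only one whose libraries did not overlap, at 201 and 217 CPM with lactate against 179 and 174 CPM, where 4.28% of all genes lay wholly higher and 6.84% wholly lower with lactate. The log2 fold change of Hes6 was 0.21, with an interval of -0.67 to 1.10.

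What the 2 against 2 libraries allowed differed by gene, and the intervals here are from the fit without a replicate block. With the block the SE was smaller for each Notch gene tested, and none was called. It was 0.64 in place of 1.48 for Notch3, 0.42 in place of 0.97 for Jag1 and 0.31 in place of 0.66 for Notch1. The labels do not say whether same-numbered libraries are pairs. For Jag2, at 34.3 and 32.2 CPM with lactate against 48.0 and 31.1 CPM, the interval ran from -1.33 to 0.76, and for Hes1, at 42.3 and 23.6 CPM against 51.5 and 35.1 CPM, from -1.58 to 0.71. Dll1 was at 6.85 and 8.001 CPM with lactate, with an interval of -1.51 to 1.11. For Notch1, at 71.7 and 36.4 CPM with lactate against 139 and 40.6 CPM, it ran from -2.38 to 0.83. Notch1 was thus high in both libraries numbered 1, the ones with 9.20% and 13.8% of counts on CT010467.1, and lower, at 40.6 and 36.4 CPM, in both numbered 2, and Notch3 showed the same order, with 3.86 and 0.356 CPM with lactate against 3.31 and 0.121 CPM. Jag1 went the other way, with 1.76 and 10.1 CPM with lactate against 2.57 and 7.95 CPM, and the part of the ribosomal RNA in these differences was not tested. Notch2 was at 26.7 CPM in lactate replicate 1 and at 73.3 to 81.6 CPM in the other 3 libraries, and its interval of -1.96 to 0.92 rested on that library. The widest intervals were those of Notch3, from -3.35 to 3.84, Hey1, from -3.35 to 2.16 with 1 and 9 counts against 8 and 14, and Jag1, from -2.18 to 2.50. Heyl was not tested, having 0 counts in both lactate libraries against 6 and 0. Of the other 79 pathway genes 62 were tested and 0 were called, with a median log2 fold change of -0.10.

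In GAS all 10 genes were detected in each of the 3 libraries, with 56 to 558 counts. Levels in GAS are given per length as RPKM and were not tested against the cultured cells, because tissue and library protocol (poly(A) libraries for GAS, Smart-seq2 for the cells) cannot be told apart. Jag2 was the highest, at 3.73 ± 0.525 RPKM (SD, n = 3), followed by Hes6 at 3.25 ± 0.390, with overlapping ranges. Hes1 at 2.197 ± 0.234, Notch3 at 2.01 ± 0.242 and Jag1 at 1.72 ± 0.160 came next, each overlapping its neighbour, and all 3 lay below the range of Hes6. Below Jag1, with a gap, came Notch2 at 1.24 ± 0.104, Heyl at 1.04 ± 0.235, Hey1 at 0.913 ± 0.0446, Dll1 at 0.831 ± 0.208 and Notch1 at 0.723 ± 0.110, again with overlapping neighbours. The highest, Jag2, exceeded 66.3% of the 15703 protein-coding genes with any count in GAS, and the lowest, Notch1, 38.1% of them. The last places depended on the length used: by the longest transcript Dll1 was last, at 0.979 RPKM, below Notch1 at 1.08 RPKM, and Hey1 came before Heyl, with overlapping ranges in both pairs, while the range of Jag2 no longer overlapped that of Hes6.

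**Figure D5:**
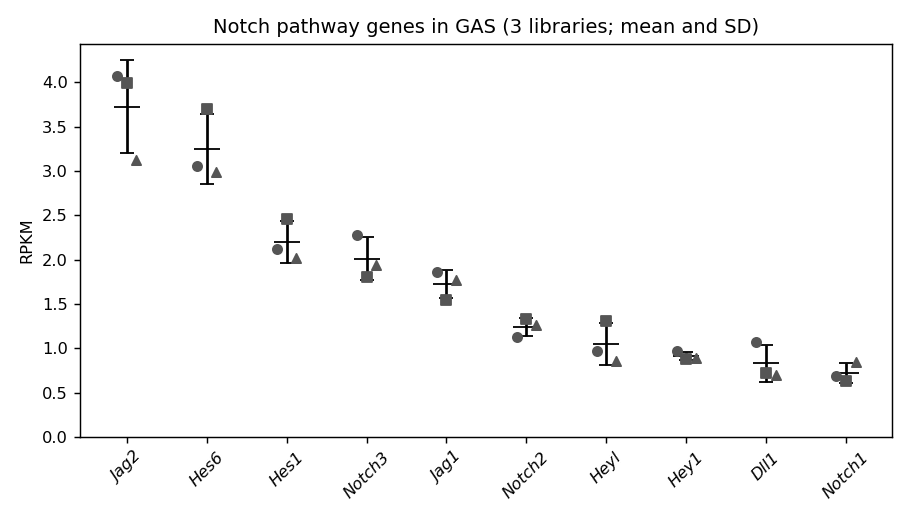
RPKM of the 10 genes in the 3 GAS libraries on a linear axis from 0, ordered by the mean. Bars are the mean and SD, and circles, squares and triangles are replicates 1, 2 and 3. The genes fall from Jag2 at 3.73 to Notch1 at 0.723 RPKM with the union of exons as length, and most neighbours overlap; by the longest transcript Dll1 is last.

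Within the cultured cells, by contrast, Hes6 and Hes1 were the most abundant of the 10 genes in MB and in MT, with Hes6 at 97.7 ± 1.91 RPKM in MB and at 206 ± 66.3 RPKM in MT (SD, n = 2). Hes6 was above 96.1% of the 13698 protein-coding genes with any count in MB and 98.9% of the 18674 in MT, sets of unlike size. In GAS Notch3 was the leading one of the 3 receptors, with 48.0% to 55.7% of their summed RPKM, and Notch1 the last, with 16.8% to 20.9%. Jag2 led the ligands, with 55.8% to 63.8%, followed by Jag1 with 24.7% to 31.7% and Dll1 with 11.5% to 15.3%. Heyl made up 12.6% to 15.7% of the summed RPKM of the 4 HES and HEY genes in GAS and at most 3.48% in a cultured library, shares that come from different protocols and were not tested. Some genes of the pathway that were at or near 0 in MB were also counted in GAS: Notch4 at 8.73 to 11.1 CPM, Dll4 at 3.54 to 5.53 CPM, Nrarp at 4.10 to 5.69 CPM and Mfng at 2.18 to 2.70 CPM. Others that were low in MB were low in GAS too: Hey2 at 0.101 to 0.260 CPM, Hes5 at 0 to 0.0506 CPM and Dlk1 at 0.456 to 0.934 CPM. Markers of every cell type listed were present in GAS. The 8 endothelial markers summed to 185 to 209 CPM, none at 0, and the 6 mural markers to 262 to 287 CPM, of which Rgs5 took 193 to 209 CPM. The 6 fibroblast markers summed to 413 to 511 CPM and the 7 MB and satellite cell markers to 52.2 to 68.3 CPM. The 5 macrophage markers summed to 24.3 to 28.7 CPM and the 4 Schwann cell markers to 12.4 to 25.2 CPM. Which of the cell types of the muscle carried the counts of Notch3, Heyl or Jag2 was not tested.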

How the data were processed

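RNA-seq libraries of GAS (3), MB (2), MT (2) and lactate-treated MB (2) were used. The authors trimmed reads with Trim Galore 0.6.6, aligned them to mm10 with HISAT2 2.2.1 and assigned them to genes with featureCounts (Subread 2.0.1). The deposited files hold whole-number counts for each gene, not normalized. The annotation release, strand setting and treatment of reads with several alignments are not given in the sources used here. GAS libraries were poly(A)-selected, and 5 ng of RNA of the cultured cells went into Smart-seq2, which has no molecular identifiers, so that counting intervals cover counting error only.

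From the counts, CPM were computed with TMM factors (edgeR 4.0.16, R 4.3.3), over the 6 cultured and the 3 GAS libraries separately, and RPKM with the union of exons in GENCODE M21 (GRCm38). MT and MB, and lactate-treated and control MB, were compared with 2 libraries each in edgeR's quasi-likelihood test over all genes after filterByExpr, with Benjamini-Hochberg adjustment and intervals from the t distribution of the fit. Calls needed an adjusted p under 0.05 and an absolute log2 fold change over 0.5, or for lactate also an unadjusted p under 0.01. P-values measure the spread between these libraries only, which may be technical. Alternatives were RLE factors, DESeq2 1.42.0, other count filters, a replicate block, a joint fit of the 6 cultured libraries, each library left out, no fold threshold and, for levels, the longest transcript as length and no TMM factors. Crossed replicate numbers and receptor shares by the longest transcript were added after seeing the data. The fits were also run on simulated counts, drawn independently for each library, so that effects shared by same-numbered libraries were not simulated. The 10 genes and the pathway, marker and motif lists were chosen with earlier results of these data known. Named genes were all 10 genes, the pathway genes called with the largest change (up to 12), a set of core pathway genes whatever their values, and markers beside a result. Promoter windows came from RefSeq GRCm38.p6.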

Additional observations from a re-analysis of the deposited data

How the results depend on the processing

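In MT against MB, genes called higher numbered 1425 and lower 887. With at least 10 counts in every library the higher calls were 766 and the lower calls 678. Of the 10 Notch genes 0 were then called higher, since Heyl, Notch3 and Hey1 were not tested. Leaving out each library gave 962 to 4118 higher and 270 to 1570 lower, the highest count without MT replicate 2 and the lowest without MT replicate 1. Among the 10 Notch genes, calls lower were 1 as reported, 2 with no filter (Notch1 added), 0 with crossed replicate numbers (Jag2 lost) and 0 to 2 on leaving out a library. Calls higher were 2 to 3 in the other alternatives. Of the other pathway genes 1 to 6 were called lower on leaving out a library, against 3. Hes1 ran from -0.20 to 0.83 and Dll1 from -0.23 to 1.31 (log2), negative without MT replicate 2 and positive in the other 10 alternatives. The cause was not tested. In lactate against control MB, calls at the unadjusted threshold numbered 0 as reported, 2 with DESeq2, 1 with no filter, 13 with the replicate block and 1 to 177 on leaving out a library, most without MB replicate 2, and adjusted calls 0 to 2. None was a Notch gene. Signs changed on leaving out a library for Notch1 (-1.40 to 0.46), Notch2 (-1.60 to 0.10), Notch3 (-2.199 to 3.99), Dll1 (-0.53 to 0.31), Jag1 (-1.65 to 1.20), Jag2 (-0.56 to 0.14) and Hey1 (-2.88 to 0.27), and Jag1 was -0.016 with the replicate block.

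Labels give replicate numbers without saying what same-numbered libraries share. Their deviations from the group means had r = -0.13 over 12921 genes in MT and MB and r = 0.70 over 11804 genes in lactate-treated and control MB, a hint from the data only. With the replicate block, MT against MB gave 1447 higher and 824 lower calls, and Jag1 passed (log2 fold change 2.14, adjusted p = 0.0321, edgeR), while Dner (adjusted p = 0.0514) and Hdac1 (adjusted p = 0.0814) were not called. For Jag1 the block fit had the larger SE, 0.76 against 0.68, yet the smaller unadjusted p, 0.00489 against 0.0109 (edgeR). That fit took the spread between libraries as nearly known, so that the pass is no added support. With crossed numbers the counts were 1192 and 867. By the longest transcript, Notch1 in GAS was 1.08 RPKM in place of 0.723, Jag2 5.08 in place of 3.73 and Hes1 3.05 in place of 2.197, and Notch1 made up 24.7% of receptor RPKM in place of 18.2%. Genes at under about 10 counts, such as Hey1 and Heyl in MB, are limited by depth.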
